A study of Homo sapiens with 6 samples.

Results

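The 36 genes described here encode the hypoxia-inducible factors, the enzymes that sense oxygen for them, and a set of their target genes other than glycolytic enzymes. They were chosen by name, with earlier results of these data known. All 36 were found among the 26255 gene symbols of the expression table. The older symbol ERO1L is kept below for the gene annotated as ERO1A. The samples are RNA-seq libraries of MDA-MB-231, a human triple-negative breast cancer line, in 2 groups of 3. The shNT group carried a scrambled control short hairpin RNA, and the shGPR81 group a hairpin against GPR81, the cell surface receptor for lactate, encoded by HCAR1. Both hairpins were delivered by lentivirus and kept under puromycin selection, so the groups share the vector and the drug. The paper describes this step as selecting resistant clones. Other differences between the derived lines cannot be told apart from the hairpin. More than 1 line with a different GPR81 hairpin was made in the study, and which of them was sequenced is not given in the sources used here. No hypoxic exposure is named for any library. The labels do not say whether replicates were separate cultures, so p-values measure only the spread between these libraries.

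Hypoxia-inducible factors are pairs of an alpha subunit (HIF1A or EPAS1, which encodes HIF-2 alpha) and a beta subunit (ARNT or ARNT2). When oxygen is present, prolyl hydroxylases of the EGLN family modify the alpha subunit, the VHL ubiquitin ligase recognises it, and it is degraded. The asparaginyl hydroxylase HIF1AN, also called FIH, further blocks its activity. When oxygen falls, the alpha subunit accumulates, pairs with the beta subunit and binds the hypoxia response element, whose core reads ACGTG or GCGTG. Much of this control acts on protein, which was not measured here. Target genes serve angiogenesis, pH control, mitophagy and the modification of collagen, processes studied in breast tumours for their part in invasion.

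Levels are given as FPKM, fragments per kilobase of transcript scaled to the size of the library, which corrects for transcript length. Differences are log2 fold changes on the log2(FPKM + 0.1) scale, shGPR81 minus shNT, with a limma p-value adjusted over all 14349 genes tested. The line showed its usual markers, with VIM at 3552 FPKM in shNT, and ESR1, PGR and CDH1 were listed at 0 in all libraries. ERBB2 was at 11.2 FPKM and EPCAM at 6.16 FPKM in shNT. CD44, KRT18 and KRT8 were at 175, 221 and 167 FPKM in shNT. HCAR1 itself was at 0.968, 1.02 and 1.36 FPKM in shNT and at 0.978, 0.891 and 0.396 FPKM in shGPR81. The groups overlapped for HCAR1, with a log2 fold change of -0.57 (SE 0.31, limma adjusted p = 0.380). The HCAR1 fold change was -0.22 without shGPR81 3, and between -0.78 and -0.44 with any other library left out. Whole reads recovered for HCAR1 summed to 129 in shNT and 92 in shGPR81. Their depth-corrected ratio was 0.677 (95% interval 0.513 to 0.892), which covers counting error only and not the spread between libraries. The paper reports lower GPR81 in its knockdown lines by RT-qPCR and western blotting. The group names below follow the labels. Relative depth ranged from 1 to 1.07 across libraries. The libraries differed by base composition, most between shNT 1 and shNT 3. Deviations of 10964 genes from their group mean correlated with transcript GC content at r = -0.67 in shNT 1 and 0.55 in shNT 3. In the remaining libraries the correlation was -0.32 to 0.37.

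Most of the 36 genes differed little between the groups, and those that passed the test moved in both directions. ARNT2 was lower and NDRG1 higher past both thresholds (adjusted p below 0.05, fold change of more than 1.5). At the adjusted p alone, 5 members were lower (ARNT2, P4HA2, EPAS1, PLOD2 and ADM) and 3 were higher (NDRG1, CA12 and PLOD1). Past both thresholds, the 2 members were 5.56% of the list, against 2.54% of all tested genes (1.59% lower and 0.955% higher). At the adjusted p alone, the 8 members were 22.2% of the list, against 5.13% of all tested genes (3.07% lower and 2.06% higher). The 3 values of each group did not overlap for 15 members, 10 lower and 5 higher in shGPR81, which is 41.7% of the list against 25.6% of all tested genes (12.7% lower and 12.9% higher). The median log2 fold change of the members was -0.024, and that of all tested genes was 0.0081. By sign alone, 20 members were below 0 and 16 above.

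**Figure D1:**
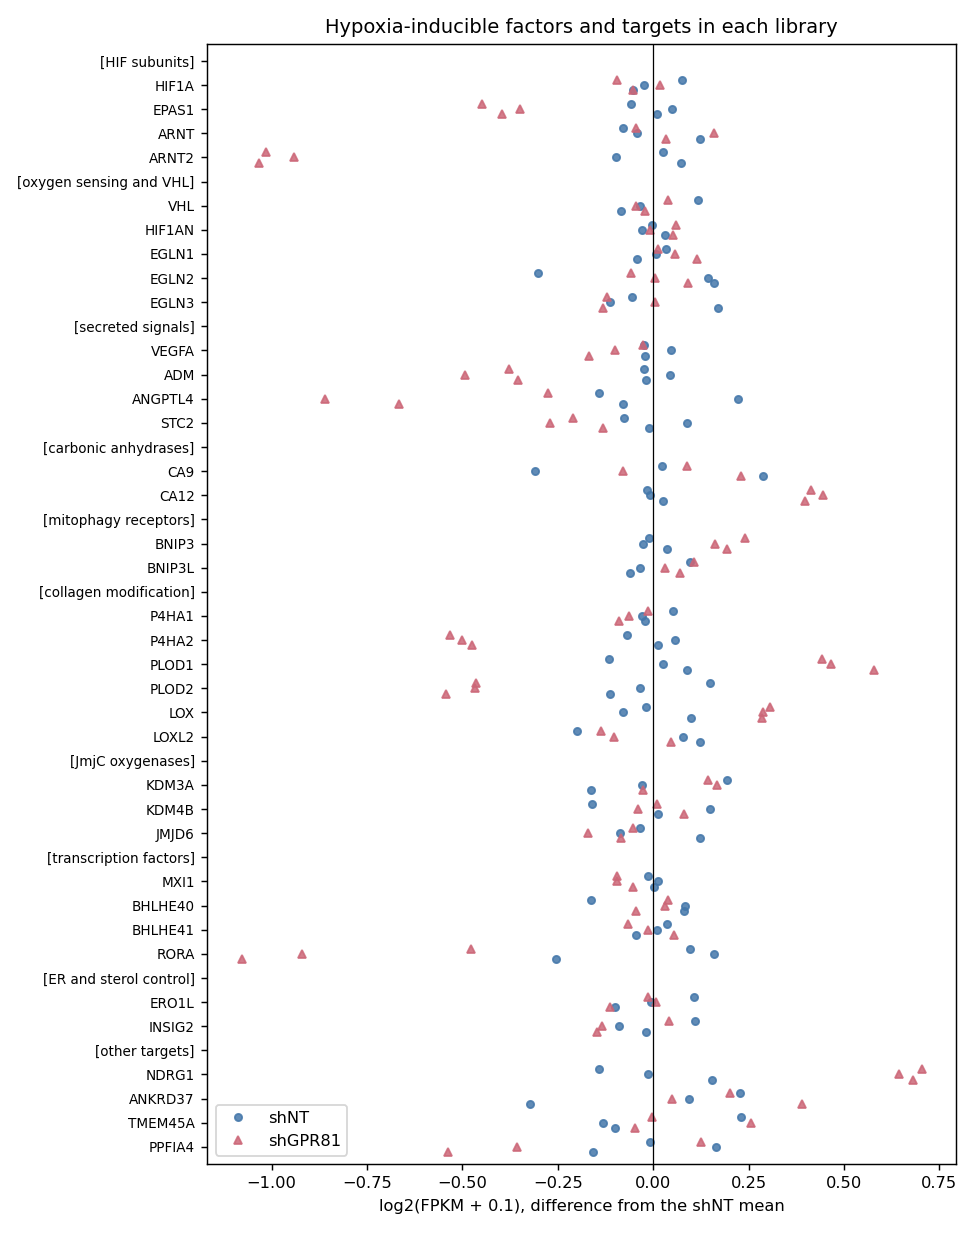
Level of each of the 36 members in each library, as log2(FPKM + 0.1) minus the mean of the shNT libraries (x axis), with members in rows grouped by role. Circles are the 3 shNT and triangles the 3 shGPR81 libraries, replicates 1 to 3 from top to bottom, and the triangles lie clear of the circles for 15 members.

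**Figure D2:**
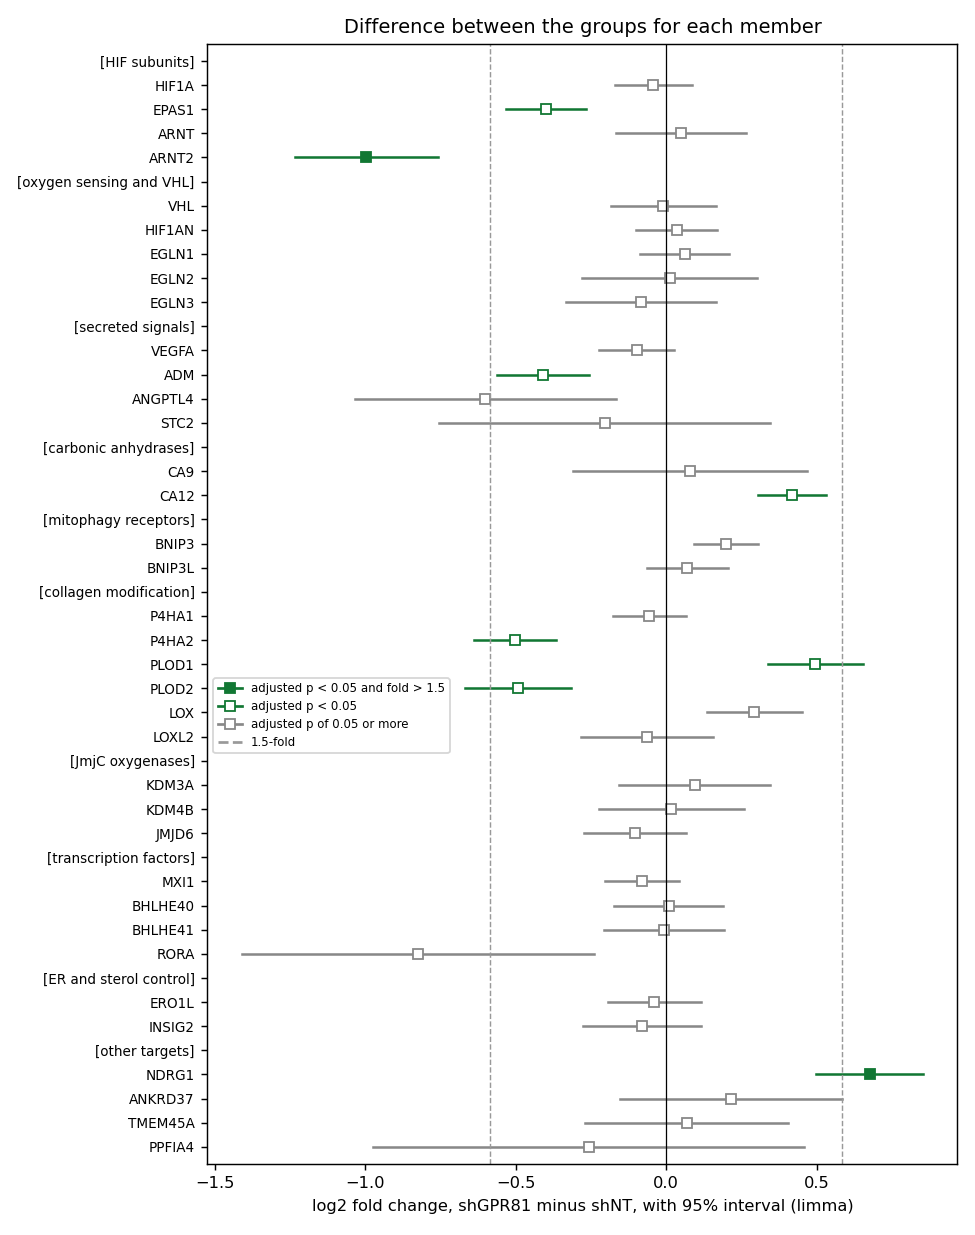
Log2 fold change of each member, shGPR81 minus shNT, with its 95% interval from limma (x axis). Filled squares mark ARNT2 and NDRG1, past both thresholds, open green squares the other 6 members past the adjusted p, and grey the 28 members that did not pass.

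Among the subunits, EPAS1 and ARNT2 fell while HIF1A and ARNT did not pass the test. HIF1A, the alpha subunit of HIF-1, had the highest level of all 36 members, at 177, 165 and 162 FPKM in shNT and 157, 169.9 and 162 FPKM in shGPR81. The groups overlapped, and its log2 fold change was -0.04 (95% interval -0.17 to 0.08, limma adjusted p = 0.740). EPAS1, the alpha subunit of HIF-2 (GRCh37 chr2:46520806-46613836, plus strand), was at 23.3, 25.1 and 24.4 FPKM in shNT and 17.8, 19.04 and 18.4 FPKM in shGPR81. All shGPR81 libraries lay below all shNT libraries. The means were 24.3 ± 0.912 and 18.4 ± 0.631 FPKM (SD, n = 3), a log2 fold change of -0.40 (SE 0.057, limma adjusted p = 0.0091). The adjusted p for EPAS1 was 0.0563 without shNT 2 and 0.0561 without shGPR81 1.

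The beta subunit ARNT2 (GRCh37 chr15:80696692-80890274, plus strand) had the lowest adjusted p of the members. It was at 3.72, 3.41 and 3.85 FPKM in shNT and at 1.76, 1.86 and 1.74 FPKM in shGPR81. The groups were far apart relative to their spread, with means of 3.66 ± 0.229 and 1.78 ± 0.0638 FPKM (SD, n = 3). ARNT2 was 1.99-fold lower (95% interval 1.69 to 2.35), a log2 fold change of -0.996 (SE 0.10, limma adjusted p = 0.0024). Whole reads could be recovered for ARNT2, 326, 306 and 338 in shNT and 165, 172 and 161 in shGPR81, and their depth-corrected ratio was 0.488 (95% interval 0.437 to 0.544, counting error only). In RNA from many cells, fewer cells with a transcript and less of it per cell cannot be told apart. ARNT, the more broadly expressed beta subunit, was at 5.75, 5.89 and 6.62 FPKM in shNT and 5.89, 6.79 and 6.22 FPKM in shGPR81. These values overlapped, and the log2 fold change was 0.05 (95% interval -0.17 to 0.26, limma adjusted p = 0.828).

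None of the 5 oxygen-sensing members passed the test, and their log2 fold changes ran from -0.08 to 0.06. VHL, the ubiquitin ligase subunit that recognises the hydroxylated alpha subunit, was at 11.9, 10.7 and 10.4 FPKM in shNT and 11.3, 10.7 and 10.8 FPKM in shGPR81. Its log2 fold change was -0.01 (95% interval -0.18 to 0.16, limma adjusted p = 0.968). EGLN1, the main prolyl hydroxylase acting on HIF1A, was at 10.8 ± 0.293 and 11.3 ± 0.411 FPKM (SD, n = 3), with a 95% interval of -0.09 to 0.21. EGLN3, itself a target of the factors, was at 3.92 ± 0.428 and 3.68 ± 0.202 FPKM (SD, n = 3), with a 95% interval of -0.33 to 0.17. EGLN2 was at 21.6 FPKM in shNT 1 and at 25.5 to 29.7 FPKM in the other 5 libraries. The log2 fold change of EGLN2 was 0.01 with all libraries and -0.14 without shNT 1 (limma adjusted p = 0.196). HIF1AN was at 13.6 ± 0.288 and 13.9 ± 0.372 FPKM (SD, n = 3), with a 95% interval of -0.10 to 0.17. For all 5 genes the interval excluded a 1.5-fold difference in either direction.

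For the 4 members grouped here as secreted signals, the shGPR81 FPKM lay below the shNT FPKM, and ADM alone passed the test. Over all tested genes, 12.7% were lower without overlap. The secreted LOX is grouped with collagen modification below, and its shGPR81 values lay above the shNT values. The same held for IGFBP3 and STC1, secreted targets outside the list that are described below. ADM encodes adrenomedullin, a vasodilator and angiogenic peptide (GRCh37 chr11:10326620-10328944, plus strand). It was at 13.4, 14.1 and 13.5 FPKM in shNT and 10.5, 9.67 and 10.7 FPKM in shGPR81, a log2 fold change of -0.41 (SE 0.066, limma adjusted p = 0.0139). The recovered reads were 256, 275 and 257 against 214, 195 and 215. The groups did not overlap on either scale. The adjusted p for ADM was 0.0789 without shNT 2, 0.0637 without shGPR81 1 and 0.0690 without shGPR81 2.

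VEGFA, the main angiogenic growth factor among the targets, was at 84.4, 88.7 and 84.5 FPKM in shNT and 84.2, 80.1 and 76.4 FPKM in shGPR81. The groups were separated only by the narrow gap between shNT 1 and shGPR81 1, and the log2 fold change was -0.10 (95% interval -0.22 to 0.03, limma adjusted p = 0.380). ANGPTL4, a secreted inhibitor of lipoprotein lipase, was at 1.79, 2.33 and 1.88 FPKM in shNT and 1.62, 1.05 and 1.21 FPKM in shGPR81. Its log2 fold change of -0.60 did not pass the test (95% interval -1.04 to -0.17, limma adjusted p = 0.126). STC2, a secreted glycoprotein, was near the detection limit, with 14, 17 and 15 reads in shNT and 13, 12 and 14 reads in shGPR81. Its groups met at 14 reads and were apart only after scaling to depth. Its log2 fold change was -0.20 (95% interval -0.75 to 0.34, limma adjusted p = 0.712), and a difference was not detectable at this depth.

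Of the carbonic anhydrases, which hydrate carbon dioxide at the cell surface and so control pH, CA12 rose and CA9 did not pass the test. CA12 (GRCh37 chr15:63613577-63674045, minus strand) was at 22.9, 23.1 and 23.6 FPKM in shNT and 30.9, 31.6 and 30.6 FPKM in shGPR81. The replicates of each group were close to each other, and the log2 fold change was 0.42 (SE 0.048, limma adjusted p = 0.0036). CA9, a widely used marker of hypoxic tumour cells, was low in both groups, at 3.07, 2.42 and 3.71 FPKM in shNT and 3.22, 2.85 and 3.56 FPKM in shGPR81. Its reads were 57, 46 and 69 against 64, 56 and 70, and the log2 fold change was 0.08 (95% interval -0.31 to 0.47, limma adjusted p = 0.852). The table also holds ARHGEF39, annotated on the other strand across part of CA9, at 5.03 to 5.89 FPKM. Whether reads were counted by strand is not stated, and 10 members have such a neighbour in the table. The neighbours NDUFB8 of HIF1AN (137 to 170.3 FPKM), UFSP2 of ANKRD37 (15.4 to 20.2 FPKM) and SRFBP1 of LOX (8.45 to 10.1 FPKM) were high relative to the member, whose own value is uncertain to that extent. The same holds for RORA in shNT 2, where RORA-AS1 was at 0.784 FPKM and RORA at 0.568 FPKM. In the remaining libraries RORA-AS1 was at 0 to 0.133 FPKM.

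Both mitophagy receptors, BNIP3 and BNIP3L, which mark mitochondria for removal, had log2 fold changes above 0 that did not pass the test. BNIP3 was at 143, 141 and 147 FPKM in shNT and at 169.8, 161 and 164 FPKM in shGPR81. All shGPR81 libraries lay above all shNT libraries, and its log2 fold change was 0.20 (SE 0.046, limma adjusted p = 0.0537). BNIP3L was at 47.4 ± 2.83 and 49.7 ± 1.32 FPKM (SD, n = 3) and overlapped between the groups, with a log2 fold change of 0.07 (limma adjusted p = 0.594).

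The 6 genes of collagen modification held 3 of the 8 members past the adjusted p, and these did not share a direction. This is 50% of a small group, in a list chosen with earlier results known, against 5.13% of all tested genes. The lysyl hydroxylases PLOD1 and PLOD2, which prepare collagen lysines for crosslinking, moved opposite to each other. PLOD1 (GRCh37 chr1:11994262-12035595, plus strand) was at 56.2, 62.0 and 64.7 FPKM in shNT and 82.8, 84.1 and 90.9 FPKM in shGPR81. PLOD2 (GRCh37 chr3:145752926-145881512, minus strand) was at 34.4, 30.3 and 28.7 FPKM in shNT and 22.5, 22.4 and 21.3 FPKM in shGPR81. Neither gene overlapped between the groups. The log2 fold change was 0.50 for PLOD1 (SE 0.067, limma adjusted p = 0.0074). For PLOD2 it was -0.49 (SE 0.076, limma adjusted p = 0.0120). The library shNT 1 held the lowest PLOD1 and the highest PLOD2 value of its group, and without it the log2 fold changes were 0.44 and -0.42 (limma adjusted p = 0.0057 and 0.0064). The adjusted p for PLOD2 rose to between 0.0559 and 0.0596 when shNT 2 or any 1 of the 3 shGPR81 libraries was left out.

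P4HA2, a catalytic subunit of the prolyl 4-hydroxylases needed for a stable collagen triple helix (GRCh37 chr5:131525840-131631008, minus strand), fell. It was at 19.2, 21.0 and 20.3 FPKM in shNT and 13.9, 14.2 and 14.5 FPKM in shGPR81. The groups were well separated, and the log2 fold change was -0.50 (SE 0.059, limma adjusted p = 0.0038). Its antisense neighbour P4HA2-AS1 was at 1.84 to 1.91 FPKM in shNT and 1.09 to 1.72 FPKM in shGPR81. P4HA1, the other catalytic subunit among the members, was at 30.0 ± 0.961 and 28.8 ± 0.785 FPKM (SD, n = 3), with a log2 fold change of -0.06 (95% interval -0.18 to 0.07, limma adjusted p = 0.640).

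LOX, the secreted lysyl oxidase that crosslinks collagen, was at 10.1, 9.67 and 10.9 FPKM in shNT and 12.6, 12.5 and 12.5 FPKM in shGPR81. The groups did not overlap, and the log2 fold change was 0.29 (SE 0.068, limma adjusted p = 0.0562). LOXL2, a related oxidase, was at 110.4 FPKM in shNT 1 and at 115 to 138 FPKM in the other 5 libraries. The log2 fold change of LOXL2 was -0.06 with all libraries (limma adjusted p = 0.779) and -0.16 without shNT 1 (limma adjusted p = 0.164).

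**Figure D3:**
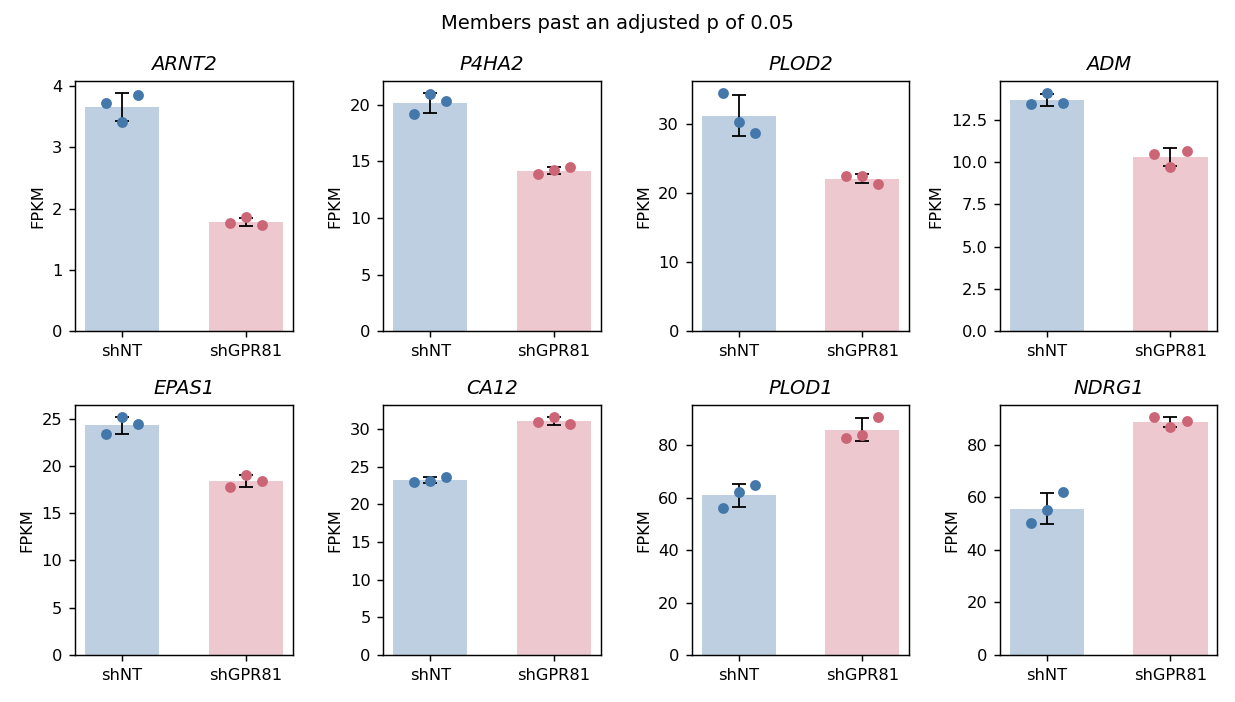
FPKM (y axis) of the 8 members past the adjusted p, 1 panel per gene with its own scale from 0. Points are the 3 libraries of each group, bars the mean and error bars the SD, and in each panel no point of a group lies within the range of the other.

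Pairs of related enzymes in which a member passed the test (PLOD1 and PLOD2, P4HA1 and P4HA2, CA9 and CA12) are shown by the 250 bases before their annotated starts. The sequences come from RefSeq (GRCh38.p14) and are written 5′ to 3′ on the strand of the gene. Capitals mark the core of the hypoxia response element, ACGTG or GCGTG, searched on both strands, so that it can also appear as CACGT or CACGC.
PLOD1 (chr1:11934467-11934716, plus strand): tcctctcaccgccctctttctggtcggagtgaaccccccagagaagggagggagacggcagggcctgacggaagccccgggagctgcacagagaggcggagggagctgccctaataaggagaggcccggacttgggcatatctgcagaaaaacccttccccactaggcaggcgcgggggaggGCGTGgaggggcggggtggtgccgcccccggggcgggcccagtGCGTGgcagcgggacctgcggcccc
PLOD2 (chr3:146161185-146161434, minus strand): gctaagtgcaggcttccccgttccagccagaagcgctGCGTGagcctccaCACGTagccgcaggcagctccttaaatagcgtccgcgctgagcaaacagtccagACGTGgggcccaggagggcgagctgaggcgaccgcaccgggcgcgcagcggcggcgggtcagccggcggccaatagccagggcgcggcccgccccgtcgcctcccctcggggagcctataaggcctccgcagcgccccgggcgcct
P4HA1 (chr10:73096867-73097116, minus strand): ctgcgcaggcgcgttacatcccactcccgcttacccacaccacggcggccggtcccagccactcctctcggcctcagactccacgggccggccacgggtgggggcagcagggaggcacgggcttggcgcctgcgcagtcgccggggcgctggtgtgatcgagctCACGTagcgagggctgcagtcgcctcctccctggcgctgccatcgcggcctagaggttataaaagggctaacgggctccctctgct
P4HA2 (chr5:132227092-132227341, minus strand): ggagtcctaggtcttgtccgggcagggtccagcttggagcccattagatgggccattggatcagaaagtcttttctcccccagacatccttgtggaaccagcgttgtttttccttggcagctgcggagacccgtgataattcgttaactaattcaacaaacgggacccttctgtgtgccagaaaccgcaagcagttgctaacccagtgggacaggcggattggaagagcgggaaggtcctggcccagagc
CA9 (chr9:35673678-35673927, plus strand): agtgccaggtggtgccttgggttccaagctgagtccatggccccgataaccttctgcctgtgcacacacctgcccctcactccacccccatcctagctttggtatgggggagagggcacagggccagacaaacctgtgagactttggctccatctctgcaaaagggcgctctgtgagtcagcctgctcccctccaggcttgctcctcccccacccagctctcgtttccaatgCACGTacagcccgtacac
CA12 (chr15:63381847-63382096, minus strand): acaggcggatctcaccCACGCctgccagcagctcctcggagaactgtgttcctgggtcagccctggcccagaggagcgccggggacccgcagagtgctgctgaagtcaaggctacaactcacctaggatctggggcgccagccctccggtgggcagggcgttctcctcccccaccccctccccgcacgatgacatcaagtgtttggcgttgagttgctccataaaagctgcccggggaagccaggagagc
The first base of the CA9 core lay 18 bases before the start, and that of the CA12 core 234 bases before it. PLOD2 held cores at 213, 200 and 146 bases before its start, and PLOD1 at 68 and 25 bases. P4HA1 held a core at 86 bases before its start, and these letters are not in the window of P4HA2.

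Over the list, 29 members had a window in the RefSeq promoter table once members on chromosome 8 were left out. Of these, 23 (79.3%) held at least 1 core before an annotated start. Over the 27305 genes in the table, chromosome 8 included, the share was 47.4%. The windows of the members were also richer in GC, with a median of 68.4% against 58.0%, and the core itself holds a CG pair. Of the 6 members past the adjusted p among these 29, 5 held a core, and so did 18 of the other 23. The members VEGFA, ARNT2, VHL and JMJD6 were not matched. LOXL2, BNIP3L and NDRG1 lie on chromosome 8, whose windows were left out for the members, so their promoters are not described. A match of these letters describes the window and does not show binding.

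Among the JmjC oxygenases, which use oxygen to modify histones or other proteins, no gene passed the test. KDM3A, a histone demethylase induced by hypoxia, was at 8.55 ± 1.10 and 9.11 ± 0.659 FPKM (SD, n = 3), with a log2 fold change of 0.10 (95% interval -0.15 to 0.35, limma adjusted p = 0.706). KDM4B, another histone demethylase, was at 4.48 ± 0.490 and 4.52 ± 0.197 FPKM (SD, n = 3), and its log2 fold change was 0.02. JMJD6 was at 18.9 ± 1.46 and 17.6 ± 0.752 FPKM (SD, n = 3), with a log2 fold change of -0.10 (limma adjusted p = 0.517). All 3 overlapped between the groups.

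The transcription factors among the targets did not pass the test either. RORA, a nuclear receptor of the circadian clock, was at 0.540, 0.568 and 0.401 FPKM in shNT and 0.330, 0.216 and 0.183 FPKM in shGPR81. This corresponds to 78, 84 and 58 reads against 51, 33 and 28 reads. Each shGPR81 value lay below each shNT value, but the spread was wide and the log2 fold change of -0.83 had a 95% interval of -1.41 to -0.24 (limma adjusted p = 0.120). MXI1, an antagonist of MYC, was at 15.9, 16.3 and 16.1 FPKM in shNT and 15.1, 15.1 and 15.5 FPKM in shGPR81. The MXI1 groups did not overlap, but the log2 fold change was only -0.08 (95% interval -0.20 to 0.04, limma adjusted p = 0.480). The clock repressors BHLHE40 and BHLHE41 overlapped between the groups, each with a log2 fold change of 0.01 or less in size (limma adjusted p = 0.969 and 0.973).

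ERO1L, which passes electrons to oxygen during disulfide formation in the endoplasmic reticulum, was at 61.2 ± 4.39 and 59.5 ± 2.63 FPKM (SD, n = 3). Its log2 fold change was -0.04 (95% interval -0.19 to 0.12, limma adjusted p = 0.810). INSIG2, a brake on sterol synthesis, was at 11.5 ± 0.816 and 10.9 ± 0.824 FPKM (SD, n = 3), with a log2 fold change of -0.08 (limma adjusted p = 0.681). Both genes overlapped between the groups.

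NDRG1, a stress-responsive gene studied as a suppressor of metastasis, had the largest rise of the members. It was at 50.2, 55.0 and 61.8 FPKM in shNT and at 90.5, 86.7 and 89.0 FPKM in shGPR81. The lowest shGPR81 library lay well above the highest shNT library, and the shNT libraries were the more spread, at 55.7 ± 5.80 against 88.7 ± 1.87 FPKM (SD, n = 3). NDRG1 was 1.60-fold higher (95% interval 1.41 to 1.81), a log2 fold change of 0.68 (SE 0.076, limma adjusted p = 0.0034). Its annotated span is GRCh37 chr8:134249418-134314265 on the minus strand.

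The last 3 targets overlapped between the groups. ANKRD37, an ankyrin repeat protein, was at 59, 55 and 40 reads in shNT and 62, 55 and 70 reads in shGPR81, with a log2 fold change of 0.21 (limma adjusted p = 0.538). TMEM45A, a transmembrane protein, was at 52, 41 and 41 reads against 47, 56 and 45 reads (log2 fold change 0.07, limma adjusted p = 0.853). PPFIA4, a liprin, was the least abundant member at a mean of 0.124 FPKM over the 6 libraries, and its log2 fold change of -0.26 had a 95% interval of -0.97 to 0.46.

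Of the 28 members that did not pass the adjusted p, 24 had a 95% interval that lay within 1.5-fold in both directions. The exceptions were RORA, ANGPTL4, STC2 and PPFIA4, all with a mean under 2 FPKM. RORA and ANGPTL4 had estimates past 1.5-fold lower (1.77-fold and 1.52-fold), with log2 intervals of -1.41 to -0.24 and -1.04 to -0.17. Neither passed the adjusted p. For STC2 and PPFIA4 the log2 intervals spanned both directions (-0.75 to 0.34 and -0.97 to 0.46), and a fall of more than 1.5-fold was not excluded. ARNT2, NDRG1, CA12, P4HA2 and PLOD1 kept an adjusted p under 0.05 with any 1 of the 6 libraries left out.

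Because several members come in pairs of related genes, the share of a gene in the summed FPKM of its pair was calculated in each library. The pairs were chosen after the values were seen, and the shares are a description without a test. ARNT2 made up 39.3%, 36.7% and 36.8% of ARNT2 plus ARNT in shNT, and 23.0%, 21.5% and 21.8% in shGPR81. PLOD2 made up 38.0%, 32.8% and 30.7% of PLOD2 plus PLOD1 in shNT, and 21.3%, 21.0% and 18.9% in shGPR81. Neither share overlapped between the groups. The share of P4HA2 in P4HA2 plus P4HA1 was 40.2% ± 1.81 in shNT and 33.0% ± 1.03 in shGPR81 (SD, n = 3). EPAS1 made up 12.7% ± 0.880 of EPAS1 plus HIF1A in shNT and 10.1% ± 0.0708 in shGPR81 (SD, n = 3), and HIF1A was the main alpha transcript in both. The shares of BNIP3L and LOXL2 in their pairs did not overlap either, and went from 24.8% to 23.2% and from 92.5% to 90.6%. For CA9 with CA12, EGLN3 with EGLN1 and BHLHE41 with BHLHE40 the groups overlapped.

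**Figure D4:**
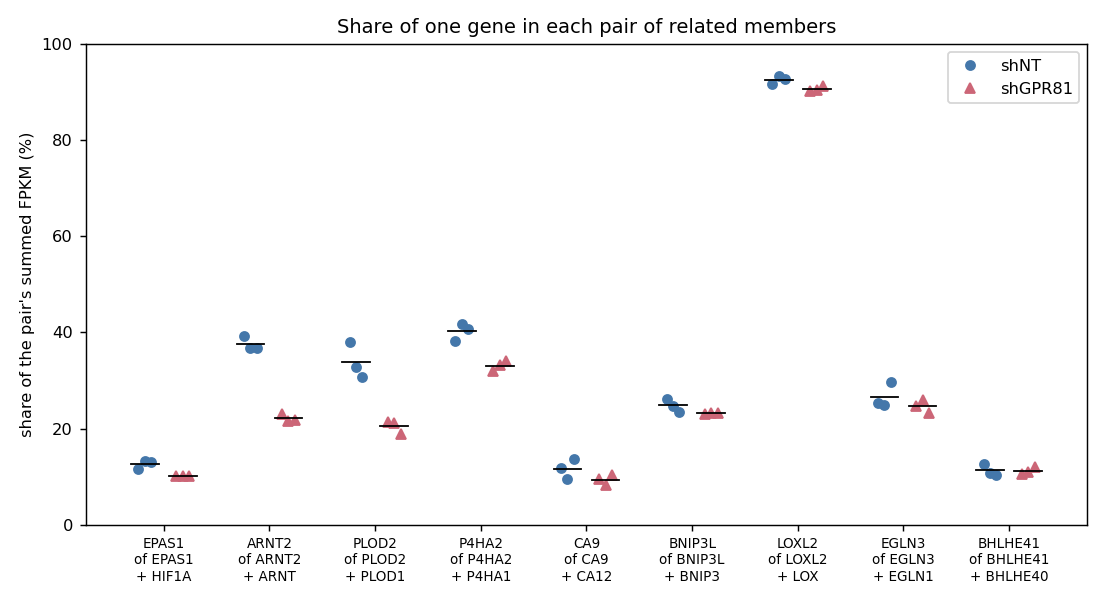
Share of the first gene in the summed FPKM of each of 9 pairs of related members (y axis, percent). Circles are shNT and triangles shGPR81 libraries, horizontal lines the group means, and the widest separations are those of ARNT2 (37.6% against 22.1%) and PLOD2 (33.8% against 20.4%).

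Beyond the 36 members, 51 other regulators and targets of the pathway were listed, of which 47 could be tested (HIF3A, EPO, FLT1 and TWIST1 were too low). None of the 15 tested regulators passed the adjusted p. Among the 32 tested targets, 1 was lower and 4 were higher at the adjusted p, which is 10.6% of the 47 genes against 5.13% of all tested genes (3.07% lower and 2.06% higher). CXCR4 and IGFBP3 passed both thresholds, which is 4.26% of the 47 genes against the 2.54% of all tested genes. IGFBP3, a binding protein of insulin-like growth factors, was at 10.8, 9.70 and 10.4 FPKM in shNT and 16.2, 17.3 and 15.9 FPKM in shGPR81 (log2 fold change 0.67, SE 0.069, limma adjusted p = 0.0026). CXCR4, a chemokine receptor in cell migration, was at 0.643, 0.724 and 0.790 FPKM in shNT and 0.185, 0.234 and 0.0467 FPKM in shGPR81. Its log2 fold change was -1.76 (SE 0.33, limma adjusted p = 0.0263), at levels so low that the estimate depends on the pseudocount, and the adjusted p was above 0.05 without shNT 2, shNT 3 or shGPR81 1. NT5E, the enzyme that makes adenosine at the cell surface, rose from 121 ± 5.53 to 160.1 ± 1.95 FPKM (SD, n = 3, log2 fold change 0.41, limma adjusted p = 0.0045). STC1, a secreted glycoprotein related to STC2, rose from 16.1 ± 0.772 to 22.03 ± 0.418 FPKM (SD, n = 3, log2 fold change 0.45, limma adjusted p = 0.0062).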

How the data were processed

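RNA-seq libraries (TruSeq stranded mRNA, single-end reads of 75 bases) were made from 3 shNT and 3 shGPR81 samples of MDA-MB-231 cells. The values are FPKM per gene symbol as deposited by the authors. The submitters' processing notes name TopHat2 2.0.13, Bowtie2 2.2.3, SAMtools 0.1.19 and Cuffnorm 2.2.1. The paper maps the reads to GRCh37, while the notes name a mouse build, and the paper was followed because the cells are human. The annotation and the use of strand in counting are not given in the sources used here. Summed FPKM were not equal across libraries, and the share of MIR6723 in each sum was 28.1% to 36.2%. The table holds FPKM and not read counts, so limma replaced the count test that the design held as its first case.

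The 14349 genes that reached 0.1 FPKM in 3 libraries or more were tested on log2(FPKM + 0.1), a scale that understates changes of low genes. The fit was limma 3.58.1 (R 4.3.3; lmFit, then eBayes with trend), with Benjamini-Hochberg adjustment. With 3 against 3 libraries an exact two-sided permutation test cannot go below p = 0.1. Where the FPKM of a gene were whole multiples of a step in all libraries, the multiples were taken as reads (5763 of 15931 genes, 10 of them members). Depth is otherwise known only in relative terms, and read intervals cover counting error only. Gene spans were read from GENCODE 44, lifted to GRCh37. The text names all 36 members, HCAR1, the line markers and, of the other pathway genes, those past both thresholds and the 4 with the smallest p. The remaining other pathway gene past the adjusted p is counted but not reported here. The members and lists were chosen with earlier results of these data known. In all, 14 alternatives were planned and 1, a correction for GC content, was chosen after seeing the data.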

Additional observations from a re-analysis of the deposited data

How the results depend on the processing

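ARNT2, NDRG1, CA12, P4HA2, PLOD1, EPAS1, PLOD2 and ADM kept their direction under all 15 alternatives. With limma's treat, which tests against a fold of 1.5, counts fell to 0 for members and other pathway genes in both directions and under both call rules. Without 1 library, members lower at the adjusted p ranged from 2 to 5, members higher without overlap from 5 to 9 (9 without shNT 1), other pathway genes past both thresholds and lower from 0 to 1 and those lower at the adjusted p from 0 to 4. CXCR4, the single other pathway gene lower past both thresholds, was lost (0 genes) with pseudocounts of 1 and 0.01 and with a filter of 1 FPKM. At the adjusted p, the count of lower other genes was 0 with a pseudocount of 0.01 and with the 1 FPKM filter, and 2 with the GC correction. The members' median log2 fold change was -0.0082 with the 1 FPKM filter, -0.028 with median centring, -0.031 with quantile normalization and -0.030 with the GC correction, and ran from -0.035 to -0.017 without 1 library. BNIP3 passed the adjusted p with the GC correction (0.0197), and LOX with the 1 FPKM filter (0.0487) and without shNT 3 (0.0482). The causes of these moves were not tested.

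Members near 0 changed sign. EGLN2 was at -0.0010 and KDM4B at -0.012 with the GC correction, and KDM4B at -0.0029 with quantile normalization. Without 1 library, log2 fold changes ran from -0.0048 to 0.11 for ARNT, -0.051 to 0.050 for VHL, -0.14 to 0.092 for EGLN2, -0.14 to 0.0014 for EGLN3, -0.076 to 0.22 for CA9, -0.063 to 0.092 for KDM4B, -0.074 to 0.050 for BHLHE40, -0.040 to 0.021 for BHLHE41, -0.090 to 0.014 for ERO1L and -0.026 to 0.18 for TMEM45A.

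Whether the replicate numbers pair the libraries was not settled. Same-numbered deviations from the group mean correlated at 0.19, -0.15 and 0.41 across 11152 genes, which are not independent. Differently numbered ones ran from -0.45 to 0.30. Deviations within a group sum to 0, so these correlations constrain one another and cannot decide it. A replicate block left 197 genes lower and 115 higher past both thresholds, against 228 and 137 without it. With the block, the 8 members stayed past the adjusted p (ARNT2 0.0132, ADM 0.0398), and other pathway genes lower came to 0 under both call rules. Not every library correlated best with its own number. Over all genes, pseudocount 1 gave 142 lower and 75 higher calls. Leaving out 1 library gave 121 to 256 lower and 65 to 152 higher calls. The GC correction gave 289 and 177, and treat 46 and 9.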
